A study of Homo sapiens with 11 samples.

Results

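Keratins are the intermediate filament proteins of epithelial cells, and 9 keratin genes (KRT7, KRT8, KRT10, KRT15, KRT17, KRT18, KRT19, KRT20 and KRT23) were examined in HCT116 cells that overexpressed gelsolin, an actin-severing protein. They were taken by gene symbol from the platform annotation, with the brightest probe where a gene had more than 1. Of the 9 genes, 8 had a probe and all 8 passed the filter on dim probes, among 10267 genes tested. KRT17 was not analysed here. A further 40 keratin genes had a probe, of which 6 were bright enough to be tested.

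HCT116 is an established human colorectal carcinoma cell line. Lines C1, C2, C3 and C8 had been stably transfected with a plasmid carrying human cytoplasmic gelsolin and EGFP, and lines V4 and V5 (labelled Vec4 and Vec5) with the empty EGFP vector, all under G418 selection. RNA was measured on Illumina HumanRef-8 beadchips with 8 arrays of the 4 gelsolin-overexpressing lines (2 harvests each) and 3 arrays of the 2 vector lines (2 harvests of V4 and 1 array of V5). The study calls these lines clones, so a difference between groups rests on 4 and 2 clones, and p-values measure the spread between line means. Wild-type cells were not analysed here. Beadchip 1 held the first harvest of the 4 gelsolin-overexpressing lines and of V4, and beadchip 2 held the second harvests and V5.

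A keratin filament is built from paired chains, each pair joining a type I (acidic) with a type II (basic) keratin. KRT8 and KRT18 form the primary pair of simple epithelia such as the lining of the gut. KRT19 and KRT20 are further type I partners in the intestine, where KRT20 marks differentiated cells near the surface and is used by pathologists to recognise colorectal carcinoma. KRT7 is the type II keratin of ductal and glandular epithelia and is usually low or missing in colorectal tissue. Keratins of stratified epithelia, such as KRT10 of the suprabasal epidermis and KRT15 of basal keratinocytes, are not typical of the colon.

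Windows before the gene start were at hand for 3 of the keratins and are shown because KRT20 was called higher in gelsolin-overexpressing lines while KRT8 and KRT10 were not called. KRT20 passed the filter on dim probes only through the lines in which it was high, so its call is a description. Each holds the 250 bases upstream of the RefSeq start in GRCh38.p14, all on the minus strand: chr12:52926470-52926719 for KRT8, chr17:40822615-40822864 for KRT10 and chr17:40885243-40885492 for KRT20. Capitals mark the TATA box, searched as the letters TATAAA, the core bound by ETS factors, searched as GGAAGT, and the core bound by CDX factors, searched as TTTAT, each on both strands. A TATAAA also holds the reverse complement of TTTAT.
KRT8: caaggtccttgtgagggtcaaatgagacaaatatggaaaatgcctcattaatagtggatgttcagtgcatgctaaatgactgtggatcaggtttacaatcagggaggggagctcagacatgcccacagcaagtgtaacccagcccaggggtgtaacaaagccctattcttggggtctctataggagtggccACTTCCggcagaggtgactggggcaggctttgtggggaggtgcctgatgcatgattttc
KRT10: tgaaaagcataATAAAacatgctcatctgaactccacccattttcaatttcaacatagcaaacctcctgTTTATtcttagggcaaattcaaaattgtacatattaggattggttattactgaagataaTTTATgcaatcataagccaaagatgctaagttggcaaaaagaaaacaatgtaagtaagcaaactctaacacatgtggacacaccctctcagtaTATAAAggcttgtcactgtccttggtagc
KRT20: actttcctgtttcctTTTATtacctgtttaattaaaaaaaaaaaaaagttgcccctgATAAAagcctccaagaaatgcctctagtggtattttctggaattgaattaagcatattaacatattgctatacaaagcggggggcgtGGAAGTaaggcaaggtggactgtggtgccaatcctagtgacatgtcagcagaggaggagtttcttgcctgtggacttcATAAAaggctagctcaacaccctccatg

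The KRT20 window held 1 GGAAGT, at 106 to 101 bases before the start, and 3 TTTAT. The KRT8 window held 1 GGAAGT on the opposite strand, at 59 to 54 bases before the start, and neither of the other motifs. KRT10 had a TATAAA at 29 to 24 bases before the start and 4 TTTAT, 1 of them within the TATAAA. Over 35116 upstream windows of the same length, TATAAA was found in 10.7%, GGAAGT in 19.5% and TTTAT in 32.7%. These matches describe letters and show no binding.

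Signals are given as normalized signal, the bead intensity divided by the median of its array and brought to a common median of 88.35. Adjusted p-values are from limma with Benjamini-Hochberg correction over the 10267 genes, with a threshold of 0.05. The gelsolin probe itself averaged 225 ± 30 in gelsolin-overexpressing lines and 141 ± 0.50 in vector lines (SD, n = 4 and n = 2), a log2 fold change of 0.67 (SE 0.13, adjusted p = 0.00365). This probe was brighter on all 8 gelsolin arrays than on any of the 3 vector arrays. Its call was lost on beadchip 1 alone (adjusted p = 0.196), without V5 (0.0592) and by the methods' test, an unmoderated one-way test of the kind the study names, run here on line means and adjusted in the same way. Background remained in the signals, so fold changes of dim probes are understated.

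KRT23, KRT19, KRT15 and KRT20 were higher in gelsolin-overexpressing lines, KRT7 was lower, and KRT8, KRT18 and KRT10 were not called. Thus 4 of 8 passed the test upward, beside 12.8% of all genes tested, and 1 of 8 downward, beside 9.41% of all genes. The upward count includes KRT20, which passed the filter on dim probes only through the lines in which it was high, so the filter favoured a rise. The count is therefore given as a description. Leaving KRT20 aside, 3 of 7 passed upward, but the 12.8% still includes genes that entered through the gelsolin-overexpressing lines alone, such as TWIST1. The median log2 fold change was 0.56 over the 8 keratins, against 0.02 over all genes tested. This median also counts KRT20 and is likewise a description. For the same 4 keratins, KRT20 again among them, the gelsolin arrays did not overlap the vector arrays and were the higher, as for 11% of all genes. For KRT7 they did not overlap and were the lower, as for 9.23% of all genes. In RNA from whole cultures, more cells with a transcript and more of it per cell cannot be told apart.

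**Figure D1:**
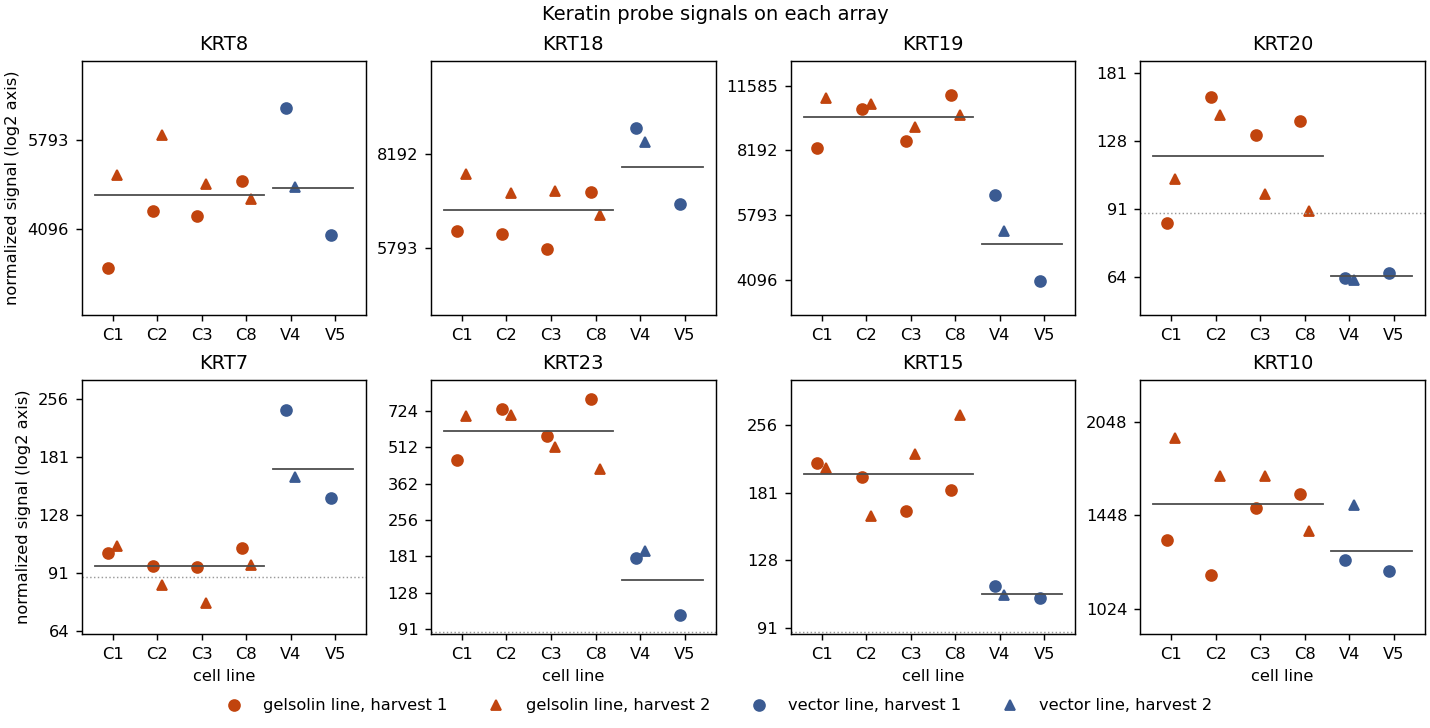
Normalized signal (log2 axis, a separate range for each gene) of the 8 keratins with a probe on every array, with the 4 gelsolin-overexpressing lines (C) left of the 2 vector lines (V); circles are arrays labelled harvest 1, triangles harvest 2, solid lines the mean of the line means and the dotted line the common median of 88.35. KRT23, KRT19, KRT15 and KRT20 are higher on all 8 gelsolin arrays than on all 3 vector arrays, KRT7 is lower on all 8, and the groups overlap for KRT8, KRT18 and KRT10.

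Among the 5 simple-epithelial keratins, KRT19 and KRT20 rose, KRT7 fell and the other 2 were not called, with a median log2 fold change of -0.03. KRT8, the type II member of the primary pair, had its lowest, median and highest normalized signal at 3515, 4743 and 5904 on gelsolin arrays, against 6557 and 4819 in V4 and 3998 in V5. The groups overlapped, and the first harvest of V4 was the highest of all 11 arrays. Line means were 4667 ± 366 in gelsolin-overexpressing lines and 4810 ± 1147 in vector lines (SD, n = 4 and n = 2). The log2 fold change of KRT8 was -0.03 (SE 0.14, adjusted p = 0.917), with a 95% interval of -0.33 to 0.28. It was negative on beadchip 1 and positive on beadchip 2.

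KRT18, the type I partner of KRT8, had 5779, 6835 and 7632 as lowest, median and highest on gelsolin arrays, against 9044 and 8567 in V4 and 6819 in V5. All gelsolin arrays lay below V4, while V5 lay within the gelsolin range. This gave a log2 fold change of -0.21 (SE 0.11, adjusted p = 0.201, 95% interval -0.46 to 0.03). KRT18 was also measured by a dimmer probe, with line means of 1161 ± 55 in gelsolin-overexpressing lines and 1534 ± 392 in vector lines (SD, n = 4 and n = 2). This probe gave a log2 fold change of -0.38 (adjusted p = 0.0905 over all 20596 probes, where the brighter probe had 0.236), so both KRT18 probes leaned the same way and neither was called. KRT8, KRT18 and KRT19 have processed pseudogenes in the human genome, and whether the probes also bind their transcripts was not tested.

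KRT19, a type I keratin that pairs with KRT8, rose 2.00-fold. Its signal was 8293, 10047 and 11013 (lowest, median and highest) on gelsolin arrays, against 6464 and 5332 in V4 and 4067 in V5. All 8 gelsolin arrays stood above the vector arrays, and within the vector lines V5 was the lower. The log2 fold change was 1.00 (SE 0.14, adjusted p = 0.000628, 95% interval 0.70 to 1.31). On beadchip 1 alone it was 0.55 (adjusted p = 0.187), and by the methods' test the adjusted p was 0.0622.

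KRT20, the type I keratin of differentiated intestinal cells, rose 1.82-fold. Gelsolin arrays had 84.1, 119 and 160 as lowest, median and highest, against 63.4 and 63.0 in V4 and 65.1 in V5. The vector arrays were close together and all below the common median, and 7 of 8 gelsolin arrays were above it, so KRT20 entered the test through the gelsolin-overexpressing lines alone. Among these, C2 was the highest line at 153 and C1 the lowest at 94.2. The log2 fold change was 0.86 (SE 0.16, adjusted p = 0.00618). The call was lost on beadchip 1 alone (adjusted p = 0.153), without V4 (0.0580), without V5 (0.0627) and by the methods' test (0.0964).

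KRT7, the type II keratin usually scarce in colorectal epithelium, fell by 0.83 on the log2 scale (SE 0.14, adjusted p = 0.00177). Gelsolin arrays had 75.3, 94.6 and 106 as lowest, median and highest, against 240 and 161 in V4 and 141 in V5. Every gelsolin array was lower than every vector array, and 2 of the 8 gelsolin arrays were below the common median. The difference was -1.29 on beadchip 1 and -0.76 on beadchip 2. By the methods' test the adjusted p was 0.0776.

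Of the 3 remaining keratins with a probe, 2 rose and 1 did not pass the test, with a median log2 fold change of 0.89. KRT23, a type I keratin induced by histone deacetylase inhibitors in cultured cancer cells, changed the most of the 8. Its signal was 417, 629 and 814 (lowest, median and highest) on gelsolin arrays, against 177 and 191 in V4 and 104 in V5. The lowest gelsolin array was above the highest vector array, and V5 was below both V4 arrays. Line means were 600 ± 81 in gelsolin-overexpressing lines and 144 ± 57 in vector lines (SD, n = 4 and n = 2), a 4.32-fold rise between the means of log2 values, as for all folds given here. On the log2 scale this was 2.11 (SE 0.21, adjusted p = 0.00025, 95% interval 1.63 to 2.59). It was called in each of the 20 alternative settings tried. KRT23 is also found in gut epithelium. With it added to the simple-epithelial keratins there were 3 that rose, 1 that fell and 2 not called, with a median of 0.42. This stands beside 12.8% of all genes that rose and 9.41% that fell. The 3 include KRT20, which entered the test through the gelsolin-overexpressing lines alone, so count and median are a description.

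KRT15, the type I keratin of basal keratinocytes and hair follicle stem cells, rose 1.85-fold. Gelsolin arrays had 161, 201 and 270 as lowest, median and highest, against 112 and 107 in V4 and 105 in V5. The vector arrays differed little among themselves and all lay below the gelsolin arrays. On the log2 scale the rise was 0.89 (SE 0.11, adjusted p = 0.00035), and the adjusted p was 0.0924 on beadchip 1 alone.

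KRT10, the type I keratin of differentiating epidermis, had 1161, 1529 and 1927 as lowest, median and highest on gelsolin arrays, against 1228 and 1504 in V4 and 1178 in V5. The vector values fell in the lower part of the gelsolin range. All 4 gelsolin-overexpressing lines had means above the vector mean, at a log2 fold change of 0.25 (SE 0.12, adjusted p = 0.162, 95% interval -0.01 to 0.52).

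**Figure D2:**
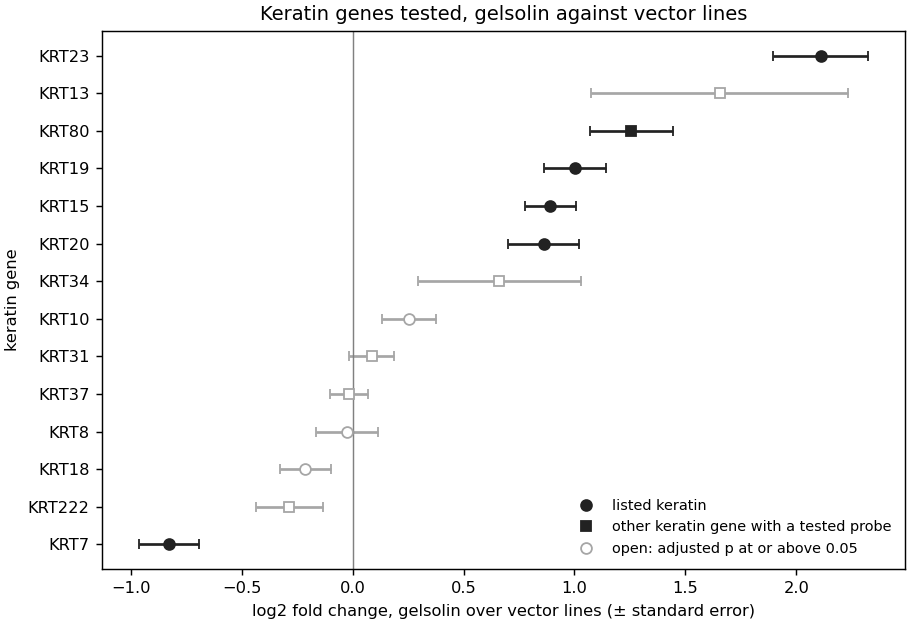
Log2 fold change of gelsolin-overexpressing over vector lines with its standard error (4 and 2 lines) for the 14 keratin genes tested; circles are the listed keratins, squares the other keratin genes, and open grey symbols did not pass the adjusted p threshold of 0.05. KRT23 (2.11), KRT80 (1.26), KRT19 (1.00), KRT15 (0.89) and KRT20 (0.86) passed upward and KRT7 (-0.83) downward.

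Of the 40 other keratin genes with a probe, 34 were too dim to be tested, with array values between 42.4 and 91.9 and log2 fold changes between -0.22 and 0.10. These included KRT5 and KRT14, the pair of basal stratified epithelia, and KRT1, the epidermal partner of KRT10. Of the 6 tested, 1 rose and none fell. KRT80, a type II keratin of many epithelia, had 414, 821 and 1656 as lowest, median and highest on gelsolin arrays, against 603 and 303 in V4 and 256 in V5. The first harvest of C1 was below the first harvest of V4, so the groups overlapped. KRT80 rose by 1.26 on the log2 scale (SE 0.19, adjusted p = 0.00116). The call did not hold on beadchip 1 alone, where the log2 fold change was 0.10 (adjusted p = 0.930), nor with a beadchip block (0.0975) or with the line as a random block over arrays (0.0664).

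KRT13, a type I keratin of non-cornified stratified epithelia, had 80.2, 232 and 562 as lowest, median and highest on gelsolin arrays, against 71.9 and 70.8 in V4 and 65.0 in V5. All gelsolin arrays were above the vector arrays, but line means ran up to 495 in C2 and down to 142 in C8, and the log2 fold change of 1.65 did not pass the test (SE 0.58, adjusted p = 0.120). Without C2 it was 1.25 and passed (adjusted p = 6.05e-06). With limma's eBayes run without trend and robust it also passed (adjusted p = 0.0193). KRT13 entered the test through the gelsolin-overexpressing lines alone, as 0 of 3 vector arrays were above the common median. Its values are therefore a description. The hair keratin KRT34, with the same limit, had line means between 148 in C3 and 60.5 in C2, against 59.4 in V4 and 58.6 in V5. It was not called (adjusted p = 0.272). KRT31 (log2 fold change 0.08), KRT37 (-0.02) and KRT222 (-0.29, adjusted p = 0.194, and 0.0446 without C2) were not called either.

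Keratin genes lie in a type II cluster on chromosome 12, which also holds KRT18, and a type I cluster on chromosome 17. By their order in RefSeq, KRT80 and KRT7 are neighbours on chromosome 12 and were called in opposite directions. KRT8 and KRT18 are neighbours at the other end of that cluster and were not called. On chromosome 17, KRT20 and KRT23 are neighbours and both rose. KRT13, KRT15 and KRT19 also follow one another, of which KRT15 and KRT19 rose and KRT13 was not called. The keratins between these groups that had a probe were too dim to be tested or were not called, and the rest have no probe named here.

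**Figure D3:**
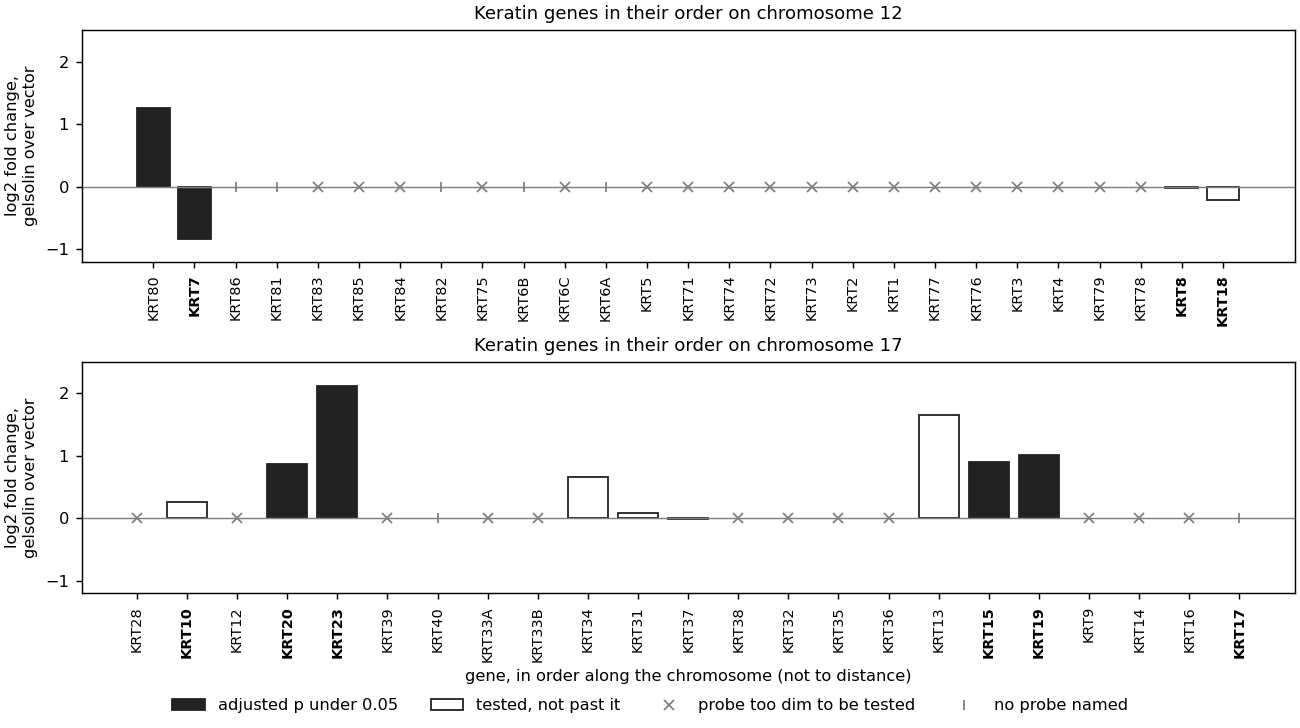
Log2 fold change of gelsolin-overexpressing over vector lines for keratin genes in their order along chromosome 12 (top) and chromosome 17 (bottom), not drawn to distance; filled bars passed the adjusted p threshold of 0.05, open bars did not, crosses are probes too dim to be tested, ticks are genes with no probe named here, and listed keratins are in bold. Filled bars stand for KRT80 and its neighbour KRT7 in opposite directions, for KRT20 and KRT23 side by side and for KRT15 and KRT19 side by side.

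Changes relative to KRT18 were compared within lines for KRT19 and for KRT8. The difference of KRT19 and KRT18 on the log2 scale was 1.13, 1.32, 1.14 and 1.28 above its vector mean in C1, C2, C3 and C8, against 0.08 in V4 and -0.08 in V5. The mean difference in log2 change was 1.22 (exact permutation test over 15 arrangements of the lines, 2-sided p = 0.0667, the smallest this design allows, 0.133 adjusted over both pairs). For the partners KRT8 and KRT18 it was 0.19 (exact p = 0.267, adjusted 0.267).

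Among the gelsolin-overexpressing lines the range of line means was widest for KRT20, at 0.70 on the log2 scale, and narrowest for KRT18, at 0.09. For the 5 keratins called it was smaller than the fold change. None of the 8 differed between the 4 lines by limma's F test, where 0.429% of all genes were called. At an unadjusted p under 0.05 there was 1 keratin, KRT20 (adjusted p = 0.292), beside 16.8% of all genes. Between the 2 vector lines, V4 exceeded V5 by 0.83 for KRT23, 0.53 for KRT19, 0.49 for KRT8, 0.47 for KRT7 and 0.37 for KRT18 on the log2 scale, which was not tested because V5 is a single array.

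Second and first harvests of the gelsolin-overexpressing lines did not differ for any of the 8 keratins by limma, nor for any other gene (0% called). At an unadjusted p under 0.05 there was 1 keratin, KRT8, beside 10.9% of all genes. KRT8 was higher in the second harvest by 0.53 in C1, 0.43 in C2 and 0.18 in C3 and lower by 0.10 in C8, with a mean difference of 0.26 (SE 0.11, adjusted p = 0.449). KRT23 moved both ways, with second minus first harvest at 0.61 in C1 and -0.96 in C8. Harvest and beadchip cannot be told apart in these lines.

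Because beadchip 1 held only 1 vector array, the comparison was also made within each beadchip. KRT23 was called on both, at 1.82 on beadchip 1 and 2.01 on beadchip 2, and so was KRT7. KRT15 was 0.75 and 0.99, KRT20 0.99 and 0.75, and KRT19 0.55 and 1.12, each called on beadchip 2 only. KRT8 was -0.62 on beadchip 1 and 0.21 on beadchip 2. KRT18 was -0.53 and -0.11, and KRT10 0.17 and 0.31, none of them called. The difference between beadchips was not tested, and on beadchip 1 the spread comes from the gelsolin arrays alone.

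**Figure D4:**
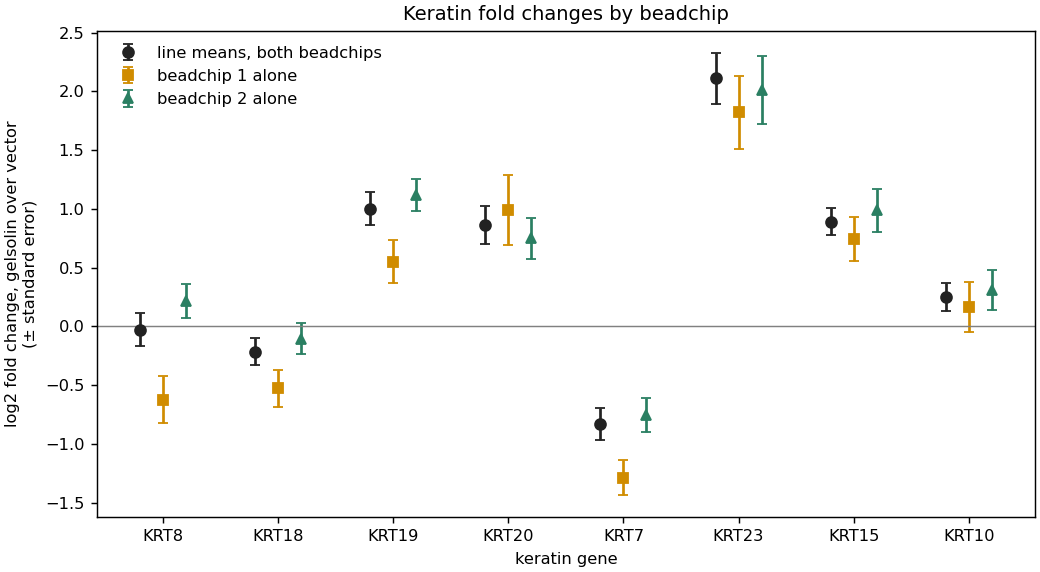
Log2 fold change of gelsolin-overexpressing over vector lines with its standard error for the 8 keratins, from line means over both beadchips (circles), from beadchip 1 alone (squares, 4 gelsolin arrays and 1 vector array) and from beadchip 2 alone (triangles, 4 gelsolin arrays and 2 vector arrays). KRT23, KRT19, KRT15 and KRT20 lie above 0 and KRT7 and KRT18 below 0 on both beadchips, while KRT8 is at -0.62 on beadchip 1 and 0.21 on beadchip 2.

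Genes that act with keratins were counted in lists, each to be read beside the 12.8% of all genes that rose, the 9.41% that fell and the median of 0.02. Of 8 other intermediate filament genes tested, 3 rose and 2 fell, with a median log2 fold change of 0.25. The count that rose includes a gene that entered the test through the gelsolin-overexpressing lines alone. For that gene 0 of 3 vector arrays were above the common median, so the count is a description. PRPH, a neuronal filament protein, averaged 329 ± 2.6 in gelsolin-overexpressing lines and 736 ± 18 in vector lines (SD, n = 4 and n = 2) and fell by 1.16. BFSP1, a lens filament protein, fell by 0.72, while LMNA, which encodes the nuclear lamins A and C, rose by 0.87 and SYNM (synemin) by 1.14, all on the log2 scale. By the methods' test LMNA and SYNM were not called, while PRPH and BFSP1 were. VIM (vimentin), the filament of mesenchymal cells, averaged 171 ± 76 in gelsolin-overexpressing lines and 179 ± 114 in vector lines (SD, n = 4 and n = 2) and was not called. On beadchip 1 alone PRPH (adjusted p = 0.0611) and LMNA (0.173) were not called, and SYNM was not called without C3 (0.0717), V4 (0.116) or V5 (0.114).

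Desmosomes anchor keratin filaments at cell contacts. Of 8 desmosomal genes tested, 1 rose and 1 fell, near the shares of all genes (12.8% and 9.41%). JUP (plakoglobin) rose by 0.80 and DSP (desmoplakin), which binds the filaments, fell by 0.41 on the log2 scale, whereas PKP2 (0.30, adjusted p = 0.107) and PERP (0.37, adjusted p = 0.131) did not pass the test. Of 7 linker and hemidesmosome genes, 1 rose and 1 fell, again near those shares. MACF1, a linker of actin and microtubules, averaged 432 ± 59 in gelsolin-overexpressing lines and 1100 ± 98 in vector lines (SD, n = 4 and n = 2) and fell by 1.36, and PPL (periplakin) rose by 0.60. EVPL (envoplakin) was at -0.28 (adjusted p = 0.113) and ITGB4, the hemidesmosomal integrin chain, at 0.40 (adjusted p = 0.157). The MACF1 call held in each alternative. PPL was near the threshold (adjusted p = 0.0492). Its call was lost in 11 of 20 alternatives, among them no filter, the mean over probes of a gene and a beadchip block. By the methods' test JUP, DSP and PPL were not called. The JUP call was lost without V5 (0.51, adjusted p = 0.217), that of DSP without C1 (0.0703), C8 (0.0576), V4 (0.278) or V5 (0.127), and that of PPL without C1 (0.0920), V4 (0.119) or V5 (0.331).

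Among 12 transcription factors known to act on keratin genes, 2 rose and 2 fell, beside 12.8% and 9.41% of all genes. EHF and ELF3, epithelial ETS factors, rose by 1.79 and 0.59, and ETS2, of the same family, and KLF4, a factor of differentiating gut and skin epithelium, fell by 0.59 and 0.67 on the log2 scale. CDX2, the intestinal factor that acts on the KRT20 gene, averaged 383 ± 42 in gelsolin-overexpressing lines and 376 ± 18 in vector lines (SD, n = 4 and n = 2) and was not called. Without V5 none of the 4 calls held (adjusted p = 0.0910 for EHF, 0.147 for ELF3, 0.141 for ETS2 and 0.193 for KLF4), and calls were also lost for EHF without C2 (0.0692), for ELF3 without V4 (0.117) and for KLF4 without V4 (0.149) or C8 (0.0547). KLF4 was also not called with the line as a random block (0.111), with a beadchip block (0.141) or on beadchip 1 (0.102) or beadchip 2 (0.476) alone, and EHF, ELF3 and ETS2 were not called on beadchip 1 alone (0.589, 0.719 and 0.359). By the methods' test none of the 4 was called. Any part of these factors in the keratin changes was not tested.

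Markers of cell state were set beside the keratins, and in each list the count in either direction was 1, to be read beside the 12.8% and 9.41% of all genes. Of 8 epithelial markers tested, CLDN4 rose (0.42), ESRP1 fell (-0.77) and the other 6 were not called. EPCAM averaged 4413 ± 899 in gelsolin-overexpressing lines and 4419 ± 622 in vector lines (SD, n = 4 and n = 2), and the CDH1 (E-cadherin) probe was near the common median, at 85.6 ± 4.4 in gelsolin-overexpressing lines and 90.1 ± 5.4 in vector lines. CD24 (0.65, adjusted p = 0.101) and CLDN7 (-0.41, adjusted p = 0.223) were not called. CD24 entered the test through the gelsolin-overexpressing lines alone, as its means in V4 (82.6) and V5 (83.4) were below the common median. Its values in any setting are therefore a description. Of 10 mesenchymal markers 4 were bright enough to be tested, of which 1 rose and 1 fell. COL1A1 fell by 0.56, and TWIST1 was higher by 0.90 but entered the test through the gelsolin-overexpressing lines alone, as 0 of 3 vector arrays were above the common median. SPARC, with the same limit, was at 0.57 (adjusted p = 0.304). Of 5 squamous genes tested, 1 rose and 1 fell. CNFN (cornifelin) rose by 1.15, and CSTA (cystatin A) was at -2.00 but entered the test through the vector lines alone, as 0 of 8 gelsolin arrays were above the common median, with SPRR1A at -0.18 and S100A2 at 0.09. Of these calls, ESRP1 was lost without V4 (adjusted p = 0.0879), COL1A1 without V5 (0.0802) and CLDN4 without C1 (0.0635), V4 (0.0833) or V5 (0.327), while CD24 passed without C1 (0.0185) or C8 (0.0496) and SPARC without C2 (0.000947). ESRP1 and CLDN4 were also not called on either beadchip alone. The CLDN4 call was lost in 11 of 19 alternatives, among them a beadchip block and the line as a random block. By the methods' test ESRP1, CLDN4, COL1A1 and CNFN were not called. Any part of these markers in the keratin changes was not tested.

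The genes whose line means most resembled those of KRT23 over the 6 lines were S100A4, ADGRF1 and BDNF, at Euclidean distances of 0.41, 0.52 and 0.63 on the log2 scale after centring each gene. Their log2 fold changes were 1.98, 1.98 and 2.36. For KRT19 the nearest were STING1, GCA and LY6E, at distances of 0.24, 0.25 and 0.29, with log2 fold changes of 1.00, 1.03 and 0.83. These genes were chosen for their likeness in the same lines, and their values are a description.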

How the data were processed

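RNA of 11 arrays (8 of gelsolin-overexpressing and 3 of vector lines) was measured on Illumina HumanRef-8 beadchips. The authors deposited bead intensities of 20596 probes, summarised in BeadStudio without normalization between arrays, and a table of ratios, made in GeneSpring by dividing each array by its 50th percentile and each probe by a baseline. The deposited ratios equal the scaled intensities up to 1 constant per probe (largest difference 3.46e-07 on the log2 scale). Array medians lay between 80.1 and 105 in gelsolin-overexpressing and between 75.7 and 88.7 in vector lines, and the number of arrays limits the precision.

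Each intensity was divided by its array's median, multiplied by the common median and log2-transformed, and harvests of a line were averaged. Genes whose line mean passed the common median in 2 or more of the 6 lines were tested with limma 3.58.1 in R 4.3.3 (lmFit, eBayes with trend and robust, 2-sided), after a check on simulated data. Probe symbols came from the platform annotation and were updated through gene identifiers to RefSeq names.

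The keratins and the lists were chosen with earlier results of these data known. Named are all listed keratins, the other keratins tested, GSN, up to 4 genes of each list with the smallest adjusted p, and the 3 genes nearest in pattern to a called keratin with a log2 fold change of at least 1. EPCAM, CDH1 and CDX2, and dim keratins named as examples, were added as known markers after their values were seen. The alternatives were other normalizations, filters, tests, blocks for line, replicate number and beadchip, each beadchip alone and each line left out. The methods' test is an unmoderated one-way test of the kind the study names; its use on line means and the Benjamini-Hochberg adjustment were chosen here.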

Additional observations from a re-analysis of the deposited data

How the results depend on the processing

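Under the alternatives KRT23 passed the threshold each time, with log2 fold changes between 1.70 and 2.53 and adjusted p up to 0.0466. The count of keratins that rose was 4 in most settings, KRT20 among them. It was 3 with the filter at 2 times the common median, 2 by the methods' test and 1 on beadchip 1 alone, and 3 or 4 with a line left out (3 without V4 or V5). The count that fell was 1, except 0 by the methods' test and 0 with that filter, where KRT7 and KRT20 were too dim and 6 keratins were tested. KRT8, not called in any setting, turned positive on beadchip 2 alone (0.21) and ranged between -0.27 and 0.22 with a line left out. Of the other genes that turned sign, VIM, CDX2, EPCAM, S100A2 and KRT31 were not called in any setting. VIM was at 0.16 with the line as a random block, 0.035 with the replicate block, 0.28 with the beadchip block, 0.38 on beadchip 1, 0.30 on beadchip 2 and between -0.74 and 0.67 with a line left out. CDX2 was at -0.032 after quantile normalization, -0.031 with normexp as well, -0.044 on beadchip 2 and between -0.031 and 0.10 with a line left out. EPCAM was at 0.0075 on beadchip 2 and between -0.16 and 0.13, S100A2 at -0.11 on beadchip 1 and between -0.0037 and 0.17, and KRT31 between -0.039 and 0.21 with a line left out. ITGB4 was at -0.40 on beadchip 1, and was called, as higher, on beadchip 2. Counts of keratins that differed between gelsolin-overexpressing lines or between harvests were 0 in each alternative run.

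Over all genes, 1314 rose and 966 fell, against 240 and 243 by the methods' test, 62 and 119 on beadchip 1, 934 and 559 on beadchip 2, 1297 and 1384 with no filter, 503 and 297 when V4 was left out, and 269 and 288 when V5 was left out. The cause was not tested, and single beadchips and left-out lines hold fewer samples. With the replicate number as a block, 4 keratins rose and 1 fell, and 1094 and 896 of all genes. Under that block KRT80 (adjusted p = 0.107), DSP, PPL, KLF4 and CLDN4 were not called. Differences between second and first harvest correlated between -0.28 and 0.59 over 10 pairs of lines (mean 0.15), with 6 over 0.1. These values do not settle whether the numbers pair the lines. In the lines compared, all but V5, the numbers follow the beadchips. On beadchip 1 alone, of the genes of the lists described as changed, BFSP1, SYNM, MACF1, TWIST1 and CSTA passed, and the log2 fold change was 0.54 for EHF, 0.26 for ELF3, 0.25 for JUP, 0.69 for CNFN and -0.048 for COL1A1. On beadchip 2 alone SYNM, KLF4, ESRP1 and CLDN4 were not called, and from the deposited ratios SYNM, DSP and CLDN4 were not. The 2 vector lines, 1 of them a single array, limit the precision of every comparison, and values near the common median have little signal over background.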
